A study of Homo sapiens with 4 samples.

Results

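The AP-1 transcription factor genes followed here are FOS, FOSB, FOSL1 and FOSL2 of the FOS family, JUN, JUNB and JUND of the JUN family, ATF3 and BATF3, and the small MAF gene MAFF. They were selected in the tables by gene symbol. All 10 had 1 row each among the 57820 gene models in the tables. All 10 also passed the filter on low counts and were among the 15288 genes tested. AP-1 is a dimer of basic leucine zipper (bZIP) proteins. JUN proteins pair with each other or with FOS proteins, while FOS proteins need a partner, and the dimers bind the TRE (TGACTCA or TGAGTCA) or, with ATF partners, the CRE (TGACGTCA). MAP kinases raise both the transcription of these genes and the activity of their proteins, and AP-1 is known to select enhancers together with SWI/SNF chromatin remodeling complexes.

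Transcripts were measured by RNA sequencing of G401, an established line from a rhabdoid tumor of the kidney, grown in DMEM with 10% FBS. The 2 groups were BRD9 KO and the LacZ control, with replicates 1 and 2 in each. BRD9 is a bromodomain subunit of a SWI/SNF complex, and the question put to these libraries is what its deletion does to transcript levels where SMARCB1 is missing. All 4 libraries share the SMARCB1-deficient background. For CRISPR-Cas9 knockouts the methods of the study describe lentiviral Cas9 under blasticidin and guides under puromycin selection. The study states that its attempts to derive BRD9-deficient clones from G401 gave none, and the sources used here do not give the day of harvest.

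Total counts ran from 15053247 to 19559290 per library, and mitochondrially encoded genes took 8.15% of them in both BRD9 KO libraries against 8.44% and 8.48% in the controls. The BRD9 transcript stood at 29.4 and 26.8 CPM (counts-per-million after TMM scaling) in the knockout libraries and at 48.2 and 53.8 CPM in the controls, a log2 fold change of -0.86 (SE 0.07, edgeR adjusted p = 2.84e-09). These are transcript levels, which do not measure the protein or the edited alleles. An exon of ZDHHC11 overlaps BRD9 on the same strand, and ZDHHC11 had 101.52 to 161.31 counts per library. SMARCB1 had 0 counts in all 4 libraries, which allows up to 0.199 CPM in the shallowest one. VIM, KRT8 and KRT18, which rhabdoid cells express together, averaged at least 1272 CPM in each group. EPCAM and CDH1 of epithelia stayed below 0.4 CPM in every library, and PTPRC of leukocytes had 0 counts in all 4. Of these markers VIM fell, by 0.49 on the log2 scale, and KRT8 and KRT18 rose, by 0.42 and 0.37. Their part in the AP-1 results was not tested. The methods of the study call the replicates biological, and the labels do not say whether they were separate cultures. The p-values set the difference between the groups against how far libraries of 1 group lie apart, and that distance may be partly technical. In edgeR the spread of a gene is estimated with the help of all genes tested, and not from its own replicates alone.

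The AP-1 genes went both ways in the BRD9 knockout libraries. FOSL1, ATF3 and BATF3 rose, JUND, FOS and JUN fell, and FOSB, FOSL2, JUNB and MAFF did not pass. A call needed an edgeR adjusted p under 0.05, with adjustment over all genes tested. By that rule 6 of 10 members were called, where 38.6% of all genes tested were. In the upward direction there were 3 of 10 members, beside 20.5% of all genes, and in the downward direction 3 of 10, beside 18.1%. Their median log2 fold change was 0.06, beside -0.01 over all genes tested, and single members ran from -0.64 to 1.37. In 8 of 10 members the 2 knockout libraries lay wholly above or below the 2 controls, 5 above and 3 below. That holds for 68.6% of all genes tested, a share near that of the members. In these bulk libraries fewer cells expressing a gene and less RNA per cell cannot be told apart.

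**Figure D1:**
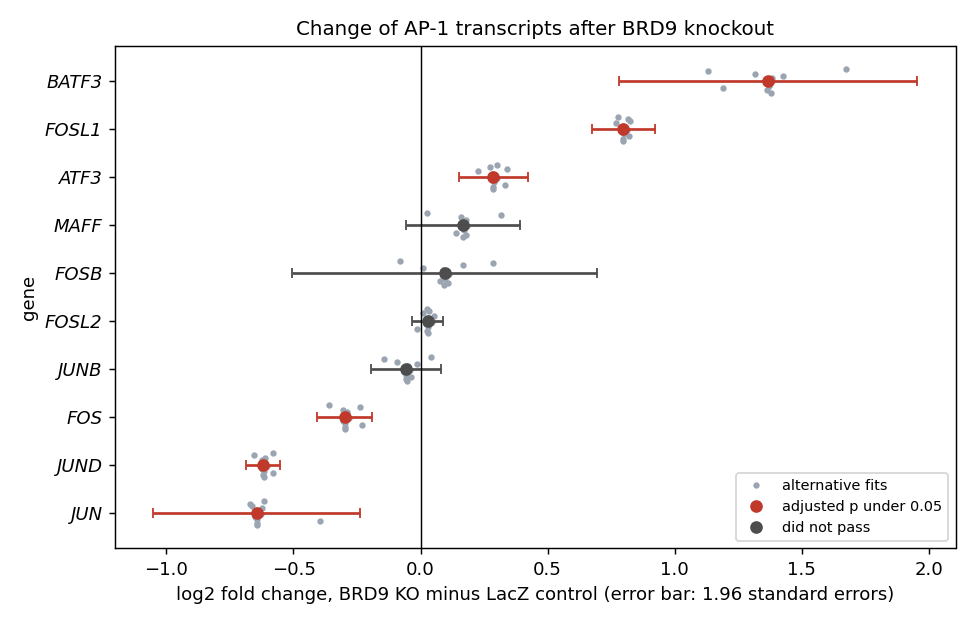
Log2 fold change of each AP-1 gene (horizontal axis, BRD9 KO minus LacZ control), with error bars of 1.96 standard errors. Red points passed an edgeR adjusted p of 0.05, dark points did not, and small gray points are the alternative fits. BATF3 is highest at 1.37 and JUN lowest at -0.64, and the interval of JUND, from -0.69 to -0.55, is far narrower than that of JUN, from -1.05 to -0.24.

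JUN proteins are the partners that FOS proteins need. Of the JUN family transcripts, 2 of 3 were called lower, beside 18.1% of all genes tested, and the call of JUN was not stable, as given below. JUND, the JUN protein that most tissues express steadily, is a short gene on the minus strand of chromosome 19 (ENSG00000130522.4, chr19:18390504-18392432 on GRCh37). It was measured at 91.1 and 90.1 CPM in the knockout libraries and at 136 and 143 CPM in the controls. The knockout level was 65.1% of the control level, with both knockout libraries well below both controls. The log2 fold change was -0.62 (SE 0.03, edgeR adjusted p = 1.92e-11), which placed JUND at rank 142 of the genes tested when ordered by p.

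The founding member JUN, an oncogene and a substrate of the JNK kinases, was scarce in these cells (ENSG00000177606.5, chr1:59242517-59249720, minus strand). Its counts were 50 and 43 in the knockout libraries and 60 and 69 in the controls. Scaled, these are 2.56 and 2.63 CPM against 3.98 and 4.14 CPM, without overlap. The 95% exact Poisson intervals, which cover counting error only, reached 3.55 CPM at most in the knockout libraries and began at 3.04 CPM in the controls, so that counting error alone lets single libraries meet. JUN fell by 0.64 on the log2 scale (SE 0.21, edgeR adjusted p = 0.0189). That call rested on the tool and on all 4 libraries: the adjusted p was 0.201 with DESeq2, 0.128 with limma on log2(TPM + 1), and between 0.0502 and 0.0994 in edgeR when any 1 of the 4 libraries was left out.

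JUNB, an immediate early gene whose protein is a weaker transactivator than JUN, is a gene of 1 exon (ENSG00000171223.4, chr19:12902300-12904129, plus strand). Its levels were 29.4 and 31.0 CPM in the knockout libraries and 29.3 and 33.3 CPM in the controls, and the groups overlapped. The log2 fold change of -0.06 did not pass (edgeR adjusted p = 0.558), with an interval of 1.96 standard errors from -0.19 to 0.08. On the opposite strand an exon of HOOK2 overlaps JUNB. HOOK2 had between 361.91 and 419.0 counts per library, against 442 to 573 for JUNB, and the kit named in the methods does not mark strand.

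Within the FOS family the largest change was the rise of FOSL1. FOSL1 encodes FRA1, a FOS protein without a transactivation domain that is abundant in invasive and RAS-driven tumor cells (ENSG00000175592.4, chr11:65659520-65668044, minus strand). Its level was 40.99 and 39.4 CPM in the knockout libraries and 23.5 and 22.9 CPM in the controls. Both knockout libraries were far above both controls, and the mean was 174% of the control mean. The log2 fold change was 0.80 (SE 0.06, edgeR adjusted p = 4.87e-09), or 1.74-fold.

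FOS itself, the classical immediate early gene induced by serum through SRF, moved the other way (ENSG00000170345.5, chr14:75745529-75748933, plus strand). It was at 39.0 and 39.4 CPM in the knockout libraries and at 50.4 and 46.3 CPM in the controls, with no overlap. FOS fell by 0.30 on the log2 scale (SE 0.05, edgeR adjusted p = 0.000209). With limma on log2(TPM + 1) the change was -0.23 and no longer passed (adjusted p = 0.0765).

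FOSL2 encodes FRA2, which like FRA1 lacks the transactivation domain of FOS (ENSG00000075426.7, chr2:28615315-28640184, plus strand). Its levels of 128 and 132 CPM in the knockout libraries stood beside 128 and 127 CPM in the controls. Both knockout libraries were above both controls; the margin was small beside the spread. The log2 fold change was 0.03 (edgeR adjusted p = 0.514), with an interval from -0.03 to 0.09. FOSB, an immediate early gene best known from neurons (ENSG00000125740.9, chr19:45971253-45978437, plus strand), had only 36 and 27 counts in the knockout libraries and 28 and 24 in the controls. The groups overlapped, at 1.85 and 1.65 CPM against 1.86 and 1.44 CPM. Its log2 fold change of 0.09 (edgeR adjusted p = 0.840) had an interval from -0.51 to 0.69, so a difference of moderate size in either direction was not detectable at this depth.

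**Figure D2:**
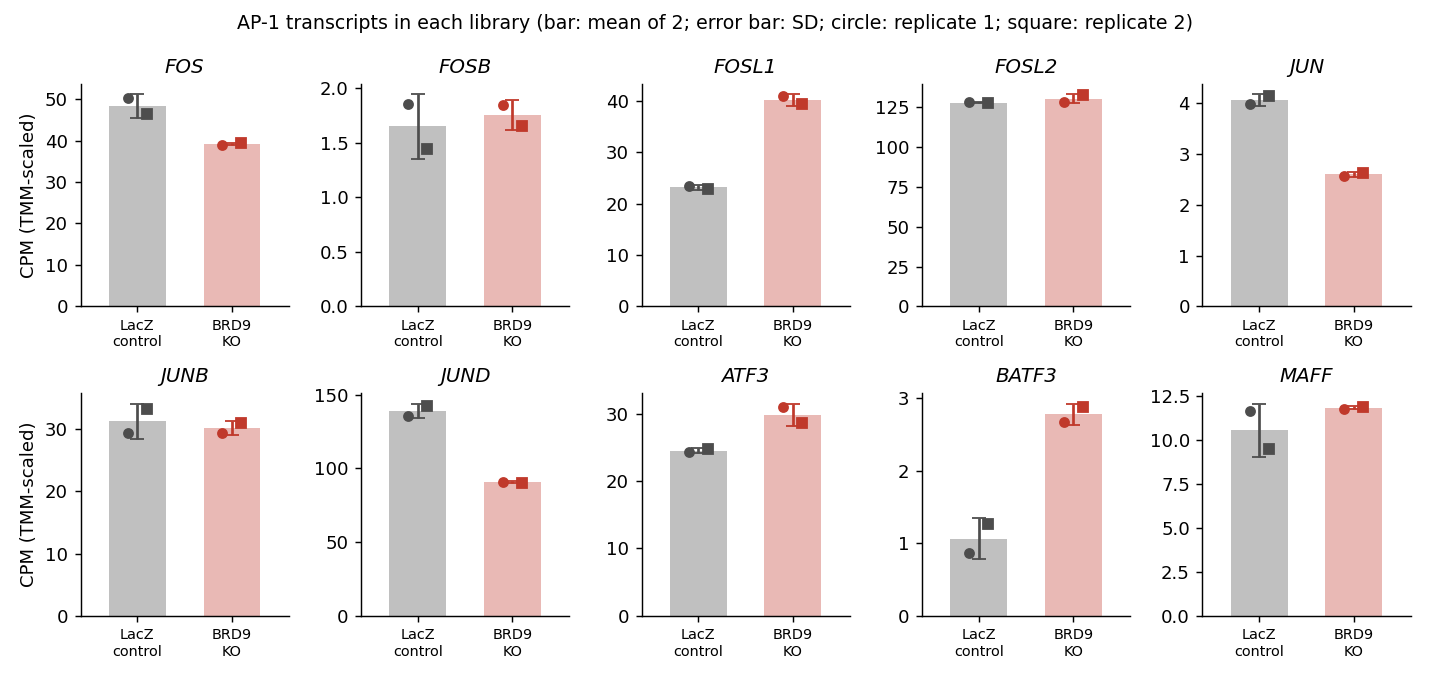
TMM-scaled CPM (vertical axes, each from 0) of the 10 AP-1 genes in LacZ control (gray) and BRD9 KO (red) libraries; bars are means of 2, error bars SD, circles replicate 1 and squares replicate 2. FOSL1, ATF3 and BATF3 are higher and FOS, JUN and JUND lower in both knockout libraries, while FOSB and JUNB overlap.

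ATF3 and BATF3 pair with JUN proteins rather than with FOS, and both rose. ATF3, induced by many stresses and able to repress as a homodimer, was at 31.0 and 28.7 CPM in the knockout libraries and at 24.3 and 24.8 CPM in the controls (ENSG00000162772.12, chr1:212738676-212794119, plus strand). The groups did not overlap. The log2 fold change was 0.29 (SE 0.07, edgeR adjusted p = 0.00275). Without BRD9 KO replicate 1, the higher of the 2, it was 0.23 and did not pass (edgeR adjusted p = 0.0576).

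BATF3, a small bZIP protein without a transactivation domain known for its need in dendritic cells, showed the largest fold change of the members (ENSG00000123685.4, chr1:212859759-212873182, minus strand). It had 52 and 47 counts in the knockout libraries and 13 and 21 in the controls, or 2.67 and 2.88 CPM against 0.862 and 1.26 CPM. The exact Poisson intervals began at 1.99 CPM in the knockout libraries and ended at 1.93 CPM in the controls, so they did not meet. Its log2 fold change was 1.37 (SE 0.30, edgeR adjusted p = 0.00113), an interval from 0.78 to 1.95, at a low level in both groups. PTPRC, the marker of leukocytes, was at 0 throughout, as above, and the source of the BATF3 transcripts was not tested. ATF3 and BATF3 are near neighbors on chromosome 1, and no exon of either overlaps that of another gene.

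MAFF belongs to the small MAF proteins, which lack a transactivation domain and pair with NFE2-related factors (ENSG00000185022.7, chr22:38596774-38612514, plus strand). It was at 11.7 and 11.9 CPM in the knockout libraries and at 11.6 and 9.48 CPM in the controls. One control was nearly level with the knockout libraries and the other lay below them. The log2 fold change of 0.17 did not pass (edgeR adjusted p = 0.267, interval from -0.06 to 0.39). It was 0.32 without LacZ control replicate 1 and 0.025 without LacZ control replicate 2, and passed in neither (edgeR adjusted p = 0.101 and 0.912). An exon of PLA2G6 overlaps MAFF on the opposite strand, and PLA2G6 had 68.0 to 109.0 counts per library.

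Several AP-1 genes carry AP-1 or CRE letters at their own start, and JUN is known to act on its own promoter. RefSeq windows on GRCh38.p14, from 250 bases before to 50 after the start, held 8 of the 10 members, all but FOSL1 and BATF3, in 10 windows. Both strands were searched for TGANTCA (TRE), TGACGTCA (CRE), TGACNTCA (CRE-like, which includes every CRE and was added after the windows were read) and the CArG box of SRF. The 5 windows with a match are shown with 10 bases on each side, 5′ to 3′ on the strand of the gene, with the match in capitals, to show which AP-1 genes hold the letters that AP-1 and ATF dimers bind.
JUND (chr19:18281805-18281832, minus strand, 200 bases upstream): gccgcccccaTGACGTCAacccacaagg
JUN (chr1:58784097-58784124, minus strand, 67 bases upstream): ggccttggggTGACATCAtgggctattt
ATF3 (chr1:212565274-212565301, plus strand, 123 bases upstream): acctatgataTGACATCAtatggccact
MAFF (chr22:38201930-38201957, plus strand, 54 bases upstream): gccgggtcggTGACGTCAccgcatgact
FOSL2 (chr2:28392852-28392878, plus strand, 4 bases after the start): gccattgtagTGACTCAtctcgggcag
JUN and ATF3 shared the same 8 letters, as did JUND and MAFF. The letters of JUN and ATF3 matched only the CRE-like pattern, the one added after the windows were read. Whether these letters bear on the changes was not tested. The windows of FOS, FOSB and JUNB had none of these letters, and no member's window matched the CArG box. A further window of ATF3 (chr1:212614768-212615067) and a further window of MAFF (chr22:38202770-38203069) had none of them either. Over all 35116 windows a TRE was found in 7.71%, a CRE in 1.85%, CRE-like letters in 7.72% and a CArG box in 1.29%. A match describes the letters and does not show binding, and a window without one says only that these letters are not in it.

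Levels of different genes can be set side by side only per length, for which the deposited TPM (transcripts-per-million) was used. In the controls JUND led with a mean of 152 TPM, followed by FOSL2 at 42.1, FOS at 40.7, JUNB at 29.6, ATF3 at 26.0 and FOSL1 at 26.0 TPM. MAFF (7.56 TPM), JUN (2.06 TPM), BATF3 (1.97 TPM) and FOSB (0.915 TPM) came last. The libraries of FOSL2 and FOS, of ATF3 and FOSL1, and of JUN and BATF3 overlapped, so these neighbors do not differ in order beyond their spread. After BRD9 knockout JUND still led, at 101 TPM, but FOSL1 had come to the second place at 46.7 TPM, above FOSL2 at 41.7, FOS at 34.5, ATF3 at 33.0 and JUNB at 28.8 TPM. The lower places went to MAFF (8.36 TPM), BATF3 (5.59 TPM), JUN (1.33 TPM) and FOSB (1.02 TPM). The TPM values of the 2 libraries kept every pair of neighbors apart, but the deposited intervals of some neighbors met. In BRD9 KO replicate 1 these ran from 40.9 to 47.6 TPM for FOSL1 and from 34.3 to 41.9 TPM for FOSL2. For JUN they ran from 0.900 to 1.58 TPM there, and for FOSB from 1.10 to 2.67 TPM. RSEM used a different effective length from library to library for all members but JUN and JUNB, which moves their TPM but not their CPM. It varied most for FOSB (2404.92 to 3651.18 bases) and BATF3 (776.15 to 1102.1 bases), and for FOSL1 it ran from 1403.68 to 1539.61 bases. The deposited TPM lay above the upper bound of its own deposited interval for JUND in both controls and for JUNB in 3 of 4 libraries, and below the lower bound for FOSB in 3 of 4. For JUND these were 144.85 and 158.26 TPM against bounds of 141.805 and 155.819 TPM.

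Summed over the 10 members, AP-1 transcripts came to 302 and 302 TPM in the knockout libraries and to 319 and 338 TPM in the controls. The pool was split differently between the families. JUN family transcripts summed to 131 ± 2.36 TPM (SD, n = 2) in BRD9 KO and 183 ± 12.1 TPM in controls, and FOS family transcripts to 124 ± 2.79 and 110 ± 0.354 TPM. The JUN family thus made up 43.9% and 42.9% of the pool in the knockout libraries and 54.8% and 56.7% in the controls. JUND averaged 101 TPM in BRD9 KO and 152 TPM in controls, and JUNB 28.8 and 29.6 TPM. In the FOS family FOSL1 averaged 46.7 and 26.0 TPM, FOS 34.5 and 40.7 TPM and FOSL2 41.7 and 42.1 TPM. The JUN family sum thus moved mainly with JUND and the FOS family sum with FOSL1. FOS family transcripts per JUN family transcript were 0.919 and 0.974 against 0.630 and 0.571. Inside the families, FOSL1 made up 38.5% and 36.9% of the FOS family TPM in the knockout libraries and 22.9% and 24.5% in the controls. The TPM ratio of FOSL1 to FOS was 1.39 and 1.32 in the knockout libraries and 0.592 and 0.689 in the controls, so the more abundant of the pair was not the same in the 2 groups. JUND per FOSL1 was 2.20 and 2.12 against 5.75 and 5.91. For each of these sums, shares and ratios the groups did not overlap, and an exact permutation test (two-sided) gave p = 0.333, the smallest that 2 libraries against 2 allow. In CPM the JUN family share differed by -9.86 percentage points, and in TPM by -12.4.

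**Figure D3:**
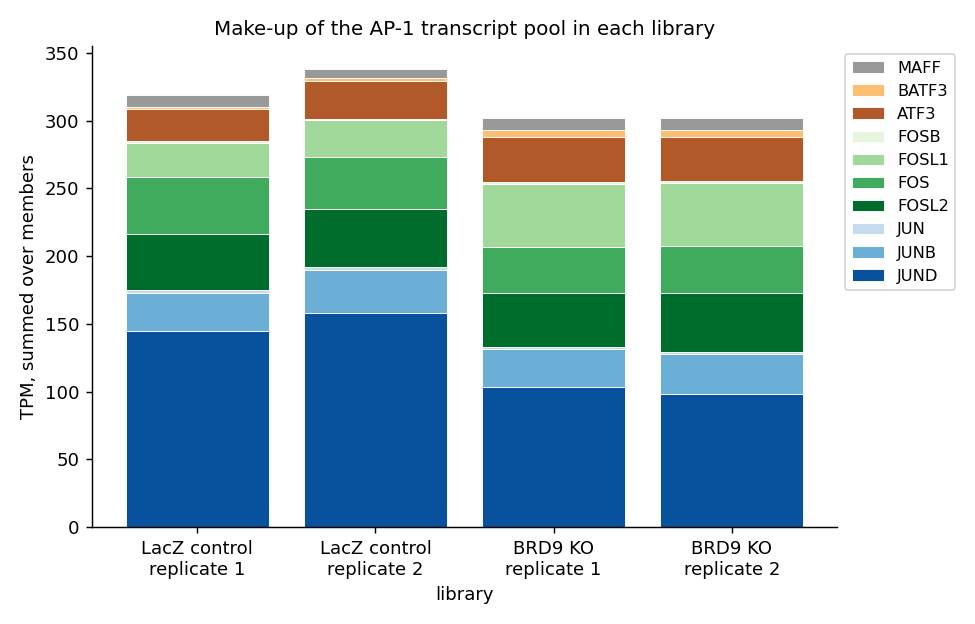
Deposited TPM of the 10 AP-1 genes stacked in each of the 4 libraries (vertical axis, TPM summed over members; colors, genes, with JUN family in blue, FOS family in green, ATF3 and BATF3 in orange tones and MAFF in gray). The stacks reach 319 and 338 TPM in the controls and 302 TPM in both knockout libraries; the JUND block shrinks and the FOSL1 block grows.

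The genes around AP-1 were read from 7 further lists, each set beside the 38.6% of all genes tested that were called, 20.5% higher and 18.1% lower. Other bZIP partners of AP-1, which decide which sites a dimer binds, went both ways: of 23, 18 were tested, 6 rose, 5 fell and 7 did not pass (61.1% called), with a median log2 fold change of 0.01. MAFK, the small MAF relative of MAFF, rose from a mean of 23.5 to 32.6 CPM (log2 fold change 0.47). The NFE2-related factors NFE2L1 and NFE2L3, partners of small MAF proteins, rose by 0.31 and 0.14 on the log2 scale. NFE2, the founding member of that family, fell by 1.36 on the log2 scale, from 9.92 to 3.84 CPM.

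Kinases of the MAP kinase pathways, which phosphorylate JUN, FOS and the factors that drive their transcription, were nearly all expressed. Of 25, 24 were tested, 10 rose, 4 fell and 10 did not pass (58.3% called, beside 38.6% of all genes), with a median of 0.08. MAP2K5, the kinase of ERK5, fell by 0.59 on the log2 scale, from 68.1 to 45.3 CPM. The p38 kinase MAPK11 rose by 0.46, its activator MAP2K3 by 0.32 and the downstream kinase RPS6KA4 (MSK2) by 0.33. This count depends on the tool: 14 of 24 were called with edgeR, 5 with DESeq2, and 7 to 9 with edgeR when a library was left out. Over all genes tested the shares called were 38.6%, 21.8% and 27.3% to 32.5%, so that with DESeq2 the kinases stood near the share of all genes.

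MAP kinase phosphatases, which switch these kinases off and are themselves induced by them, mostly rose. Of 10, 7 were tested, 5 rose, 1 fell and 1 did not pass, with a median of 0.22; 85.7% were called, beside 38.6% of all genes, and 20.5% of all genes rose. DUSP5, a nuclear phosphatase of ERK, rose from 25.8 to 43.6 CPM (log2 fold change 0.75, edgeR adjusted p = 8.78e-09). DUSP6, the cytoplasmic one, rose by 0.22, DUSP1 by 0.22 and the scarce DUSP2 by 0.90 on the log2 scale. The 1 that fell, named after its value was seen, was DUSP16, a phosphatase of JNK, with a log2 fold change of -0.19.

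SRF drives FOS, JUNB and FOSB together with ternary complex factors. Of 7 genes of SRF and its cofactors, all tested, 3 rose, 0 fell and 4 did not pass, with a median of 0.11. The 42.9% called is near the 38.6% of all genes. The cofactor FHL2 rose by 0.48, and the ternary complex factors ELK3 and ELK4 by 0.19 each on the log2 scale. ELK4 did not keep its call in 4 of 12 alternative fits, with DESeq2 among them (adjusted p = 0.146). SRF itself, named after its values were seen, was level at 67.9 and 67.7 CPM on average, with a log2 fold change of 0.00.

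The other immediate early genes, transcribed within minutes of a stimulus as FOS and JUNB are, did not share 1 direction. Of 24, 18 were tested, 6 rose, 4 fell and 8 did not pass (55.6% called, beside 38.6% of all genes), with a median of -0.06. BTG2, an antiproliferative gene that p53 also induces, rose from 49.96 to 88.0 CPM (log2 fold change 0.82, edgeR adjusted p = 9.41e-12). KLF10 rose by 0.46 and SIK1 by 0.38 on the log2 scale, while CYR61, a matricellular gene that YAP and SRF induce, fell by 0.28. SIK1 did not keep its call with limma on log2(TPM + 1) (adjusted p = 0.0656).

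Textbook AP-1 target genes had the highest median of the lists, 0.32. Of 28, 19 were tested, 11 rose, 3 fell and 5 did not pass (73.7% called, beside 38.6% of all genes). PLAU, the urokinase gene with AP-1 sites in its enhancer, rose from 491.8 and 496.1 CPM in the controls to 787.7 and 801.4 CPM in the knockout libraries (log2 fold change 0.69, SE 0.01, edgeR adjusted p = 4.15e-18). HMOX1, heme oxygenase, which NFE2L2 with small MAF partners also controls, rose from 56.6 to 111 CPM (0.98 on the log2 scale). KRT18 rose by 0.37 on the log2 scale and is also one of the cell line markers given above. The 3 that fell, named after their values were seen, were SPP1 (log2 fold change -1.30), HMGA1 (-0.06) and GJA1 (-0.05). The counts of targets are descriptions, and AP-1 binding at these genes was not measured in these libraries.

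Genes for the degradation and modification of AP-1 proteins numbered 8, all tested, of which 3 rose, 0 fell and 5 did not pass, with a median of 0.08. The 37.5% called is near the 38.6% of all genes. RNF187, a ubiquitin ligase and coactivator of JUN, rose by 0.35, TRIB1, a pseudokinase that brings substrates to a ubiquitin ligase, by 0.62 and FBXW7, a ubiquitin ligase for phosphorylated JUN, by 0.25 on the log2 scale. FBXW7 did not keep its call with DESeq2 (adjusted p = 0.075). With limma on log2(TPM + 1) neither FBXW7 (adjusted p = 0.104) nor TRIB1 (adjusted p = 0.0571) kept it.

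**Figure D4:**
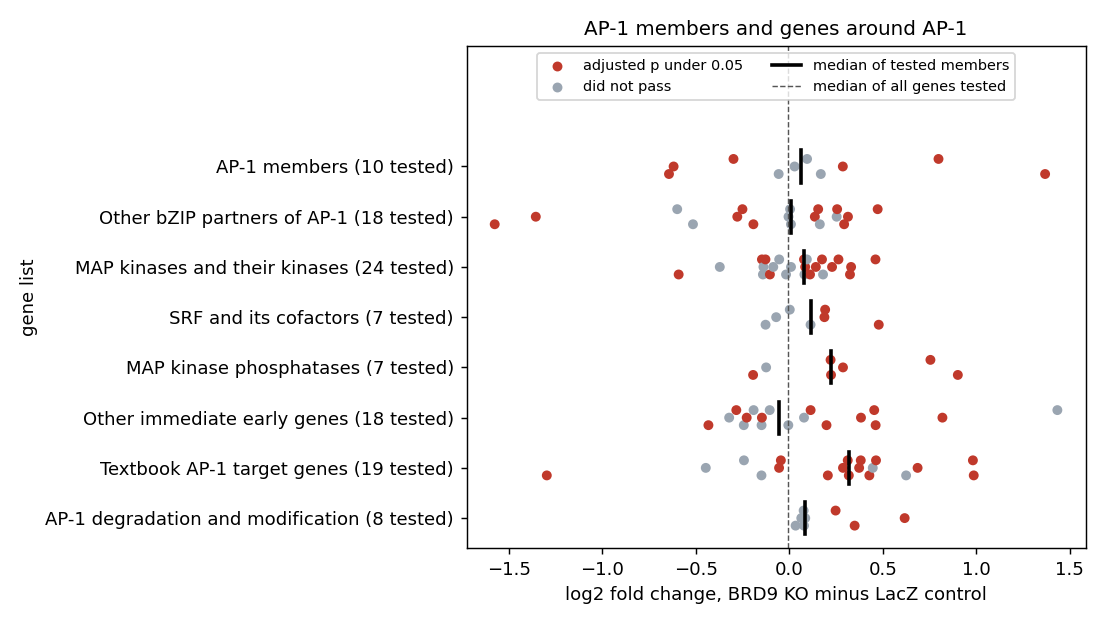
Log2 fold change (horizontal axis, BRD9 KO minus LacZ control) of each tested gene in the AP-1 members and 7 lists around them; red points passed an edgeR adjusted p of 0.05, gray did not, the black bar is the list median and the dashed line the median of all genes tested (-0.01). List medians run from -0.06 for the other immediate early genes to 0.32 for the textbook targets, and the AP-1 members lie on both sides of 0.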

How the data were processed

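RNA-seq libraries of G401 cells (2 BRD9 KO, 2 LacZ control) were used. Reads were aligned to hg19 by the authors with STAR and quantified with RSEM. DESeq2 is named in the submitters' processing notes as well, and the sources used here give no versions. The expected counts deposited by the authors are unscaled estimates, and a read matching several genes is split between them by a model. The deposited TPM values were made by the authors by dividing counts by effective length and scaling each library to the same sum, and were used for levels, sums and 1 alternative. FPKM values and posterior columns were also deposited, of which the posterior spread and intervals were only checked. No value column was left without a sample (0 unmapped). The labels name a Direct-zol extraction and the methods a Trizol one, and which applied is not settled here.

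Expected counts were rounded and tested with edgeR 4.0.16 in R 4.3.3 (TMM, filterByExpr, robust quasi-likelihood F test, two-sided, Benjamini-Hochberg adjustment over 15288 genes). Standard errors follow from the F statistic. Totals ran from 15053247 to 19559290, and an absent gene could reach 3 counts. Replicates differed beyond sampling noise (chi-square over its degrees of freedom, genes of at least 20 counts: 1.59 in BRD9 KO, 1.62 in LacZ control) and were kept separate. Alternatives were DESeq2 1.42.0, limma 3.58.1 (voom, and log2(TPM + 1)), RLE scaling, library totals alone, no filter, at least 1 CPM in all 4 libraries, a replicate block, each library left out, and an adjusted p under 0.01. Scripts were tested on simulated data. Members and lists were chosen with earlier results of these data known. Named were all 10 members, BRD9 and up to 4 called genes per other list by smallest p, and any others are said to be chosen after their values were seen. A gene that this rule took is not reported here. Coordinates of genes are from GENCODE v44 on GRCh37, and promoter letters from RefSeq on GRCh38.p14. Proteins planned for description were not analysed here.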

Additional observations from a re-analysis of the deposited data

How the results depend on the processing

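Over 12 alternative fits FOSL1 and JUND kept their direction and call, as did BATF3 over the 11 that could be run, since it did not pass a minimum of 1 CPM in all 4 libraries. FOS lost its call in 1 fit, ATF3 in 1 and JUN in 6, and the cause was not tested. Among AP-1 members 1 was called lower with limma on log2(TPM + 1) in place of 3. Of the members that never passed, MAFF kept its sign and the others changed it. FOSB was -0.082 and JUNB 0.041 without LacZ control replicate 2 (ranges with a library left out, -0.082 to 0.28 and -0.14 to 0.041). FOSL2 was -0.016 with limma on log2(TPM + 1). Of MAP kinases 14 were called, but 5 with DESeq2, 7 with limma on log2(TPM + 1), 8 at an adjusted p under 0.01, and 7 to 9 with a library left out. With limma on log2(TPM + 1), 4 immediate early genes were called in place of 10, and 1 degradation gene in place of 3. The JUN family share differed by -9.86 points in CPM in place of -12.4. Between 6 and 8 of 10 members kept their control rank by TPM with 1 control left out. Over all genes tested 5901 (38.6%) were called by edgeR, 3339 (21.8%) by DESeq2, 2444 (16.0%) by limma on log2(TPM + 1) and 6109 (40.0%) with a replicate block. With DESeq2 and with limma on log2(TPM + 1) fewer were thus called over all genes as well as in these lists. The share of all genes at an adjusted p under 0.01 was not counted. Same-numbered libraries did not deviate together (correlation across genes -0.05), so the numbers were not taken as pairs, and the replicate block gave 6 called AP-1 members, as without it. Depth limits FOSB, JUN and BATF3, which had at most 69 counts in any library. With a library left out, the spread of the lone one is taken from the other group.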
